A study of Mus musculus with 8 samples.

Results

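The SLC25 proteins are the carriers of the mitochondrial inner membrane, each exchanging a small set of solutes such as phosphate, adenine nucleotides, citrate, aspartate, glutamate, cofactors or iron between the matrix and the intermembrane space. They are built from repeats that each bear the same short signature of residues, and a few members work in the peroxisomal or outer mitochondrial membrane instead. In the pancreatic β-cell, glucose is oxidised in mitochondria to make the ATP that triggers insulin secretion, so phosphate and ADP must enter the matrix, ATP must leave it, and the aspartate/glutamate carriers must pass reducing equivalents inward. UCP2, the protein overexpressed in these mice, belongs to the same family.

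All mouse genes whose symbol on the array began with *Slc25a* were taken, apart from the close UCP relatives *Slc25a14*, *Slc25a27* and *Slc25a30*. This gave 44 genes of the 26894 with a symbol, covered by 97 probes of 60 bases, and each gene was represented by its brightest probe, the one with the highest mean over the 8 arrays. A gene was tested where this probe was well above background on 4 arrays or more, which left 40 of the 44. The 4 that were not tested were *Slc25a31*, a testis adenine nucleotide carrier, which was well above background on 1 array, and *Slc25a21*, *Slc25a41* and *Slc25a54*, which were not well above background on any.

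RNA from the islets of 4 βUCP2Tg samples and 4 WT samples was hybridised to one-colour arrays. βUCP2Tg mice carry mouse *Ucp2* cDNA under a rat insulin 2 promoter, with a rabbit β-globin intron, so that the transgene is driven in β-cells, whereas the array measured whole islets. The WT mice were littermates, all animals were adult males on a C57BL6/J background, and both groups of isolated islets were cultured for 8 h in medium with 200 mg/dL glucose. Whether a sample held islets of 1 mouse or of several was not given in the sources used here, so the p-values measure the spread between these samples.

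Values are log2 signals relative to the 75th percentile of the same array, so that 0 stands for that percentile. *Ucp2* itself was 7.38 ± 0.31 in βUCP2Tg islets and 1.15 ± 0.23 in WT islets (SD, n = 4 each), which is the direction of the labels. All 8 arrays lay on 1 slide and were scanned once, with WT in 1 row and βUCP2Tg in the other, so that slide position and genotype cannot be told apart. All 8 β-cell markers, including *Ins1*, *Ins2* and *Pdx1*, were well above background. The scanner software marked 2 of 10 quality metrics as out of range on WT replicates 1 and 3. WT replicate 1 and βUCP2Tg replicate 4 stood apart from their groups: over all genes, 63.9% and 53.2% of their values were closer to the mean of the other genotype than to that of the other arrays of their own, against 23% to 42.5% on the other 6 arrays. For the Slc25a carriers this was so of 29 of 40 genes on WT replicate 1, 22 on WT replicate 4 and 20 on βUCP2Tg replicate 4, and of 10 to 17 on the other 5 arrays.

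No Slc25a carrier passed the threshold of an adjusted p under 0.05 and a fold over 1.5. In limma's test over 35363 probes, 0 of 40 carriers were called higher and 0 lower, where 0.274% of all 17857 genes tested were called higher, 0.207% lower and 0.482% in either direction. The smallest adjusted p among the carriers was 0.0823, for *Slc25a3*. At an unadjusted p under 0.05 there were 7 carriers (17.5%), 5 higher and 2 lower, against 24.5% of all genes (12.9% higher and 11.6% lower). The gap between these shares depended on the processing. It was 25% of the carriers against 25.4% of all genes after quantile normalization, 27.5% against 26.7% with an intensity trend, and 25% against 31.8% with normexp background correction. *Slc25a3*, *Slc25a25* and *Slc25a26* had an adjusted p under 0.10, as did 6.47% of all genes.

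Most differences were also small. The median log2 fold change of the carriers was 0.07, against 0.03 over all genes, and their range was -0.73 (*Slc25a25*) to 0.70 (*Slc25a53*). The mean was higher in βUCP2Tg islets for 24 carriers and lower for 16. For 22 of 40 carriers (55%) the whole 95% confidence interval lay within 1.5-fold of no difference, as for 52.6% of all genes. For the other 18 the interval reached past 1.5-fold, and for 6 of these, *Slc25a10*, *Slc25a13*, *Slc25a17*, *Slc25a25*, *Slc25a26* and *Slc25a42*, it left out no difference. The groups did not overlap for 4 carriers (10%), *Slc25a12* and *Slc25a26* higher and *Slc25a3* and *Slc25a51* lower, against 13.1% of all genes (6.36% higher and 6.74% lower).

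**Figure D1:**
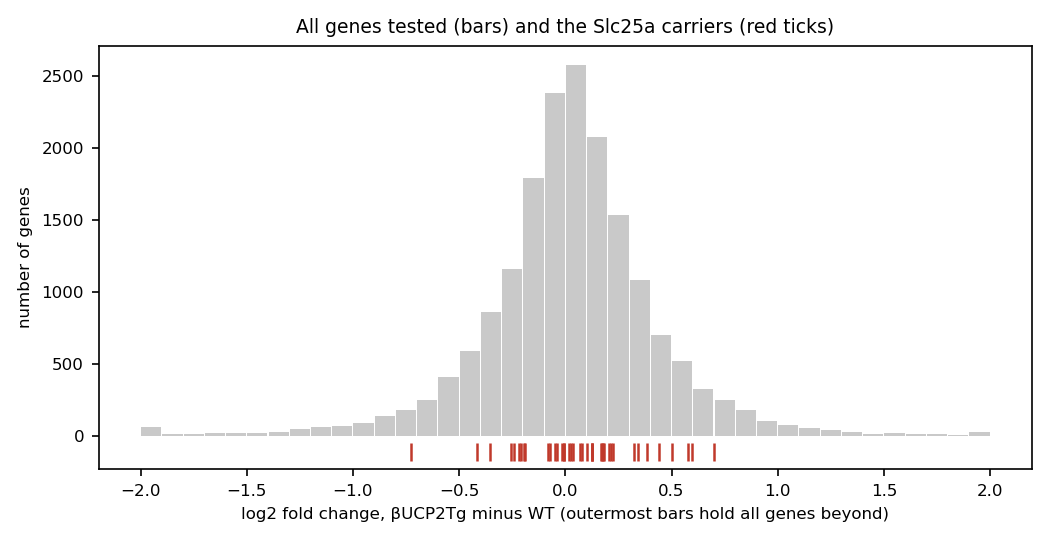
Number of genes (vertical axis) by log2 fold change, βUCP2Tg minus WT (horizontal axis), for the brightest probe of each of 17857 genes, with the 40 Slc25a carriers as red ticks below. The carriers run from -0.73 to 0.70 and lie in the middle of the distribution, with a median of 0.07 against 0.03 for all genes.

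**Figure D2:**
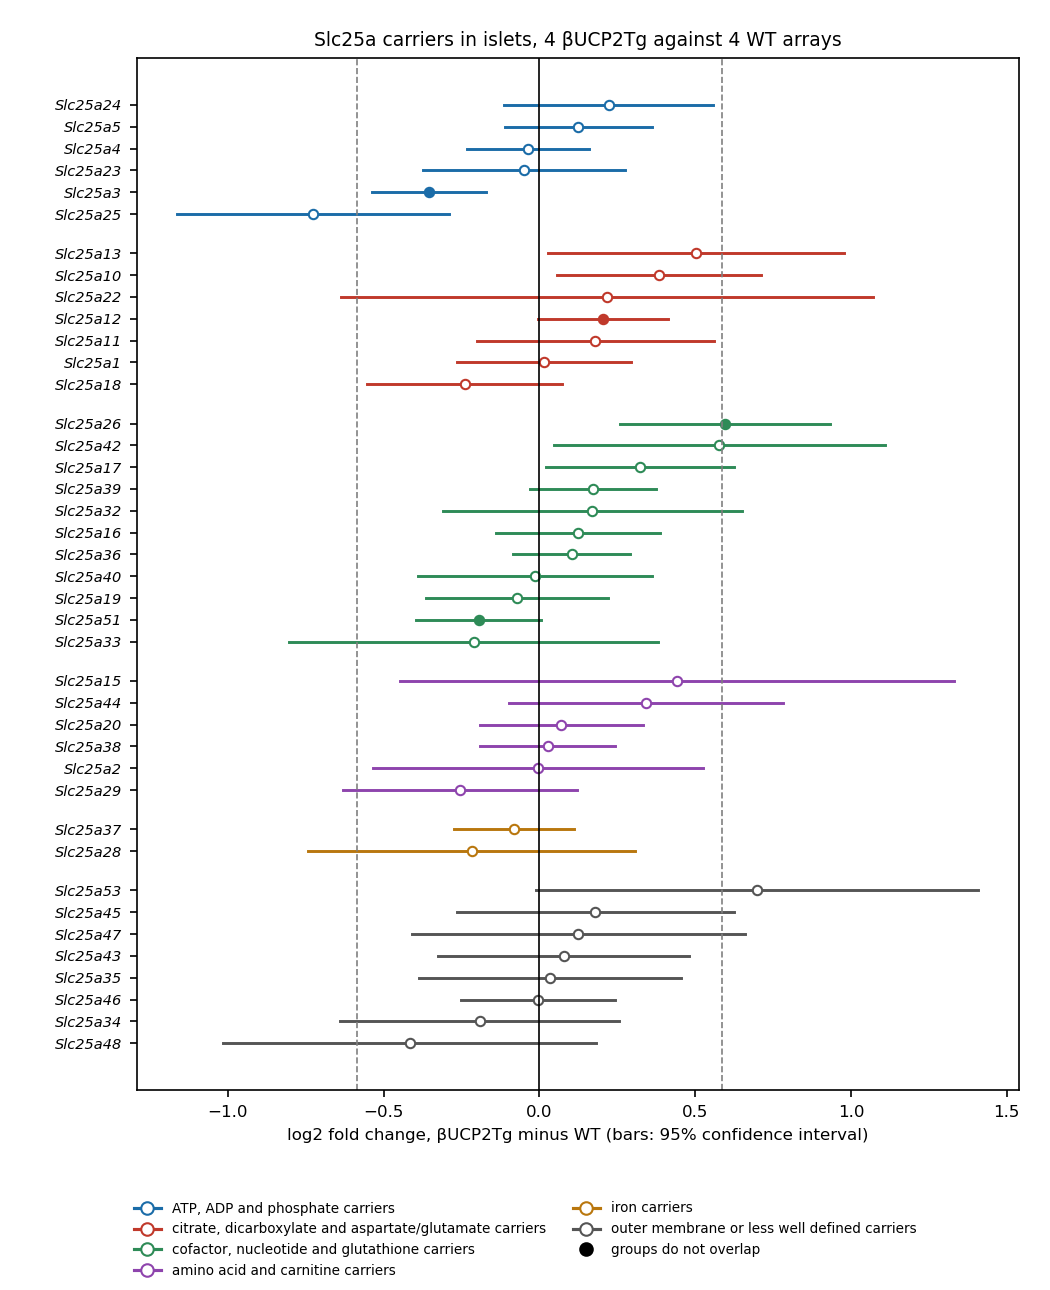
Log2 fold change of each of the 40 tested carriers (points) with its 95% confidence interval (lines), grouped by role, from 4 βUCP2Tg and 4 WT arrays. Filled points mark the 4 carriers whose groups do not overlap, and the dashed lines mark 1.5-fold, which no carrier passed together with an adjusted p under 0.05.

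Among the carriers of ATP, ADP and phosphate, which serve ATP synthesis directly, 6 of 8 were tested, 0 were called, and the median log2 fold change was -0.04. *Slc25a3* brings phosphate into the matrix for ATP synthase. Its log2 signal was 4.56, 4.52, 4.56 and 4.49 on the 4 βUCP2Tg arrays and 4.98, 4.82, 4.84 and 4.90 on the 4 WT arrays. Every βUCP2Tg value was below every WT value, WT replicate 1 and βUCP2Tg replicate 4 included. The mean was 0.782 times the WT mean, a log2 fold change of -0.35 with an SE of 0.08 and a limma adjusted p of 0.0823. The exact two-sided permutation test gave p = 0.0286, the smallest that 4 against 4 arrays allow. With 1 array left out at a time the limma adjusted p of *Slc25a3* ran from 0.0369, without WT replicate 1, to 0.245, and it was 0.0260 with normexp background correction and 0.0419 with an intensity trend, each time at a fold under 1.5. The mean of all its probes gave -0.62, past 1.5-fold, with a limma adjusted p of 0.0647.

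*Slc25a25* is a calcium-regulated carrier that exchanges ATP-Mg for phosphate and so sets the adenine nucleotide content of the matrix. Its log2 signal was 1.32, 1.35, 1.28 and 1.65 on the βUCP2Tg arrays and 1.57, 2.39, 2.19 and 2.35 on the WT arrays. WT replicate 1 lay below βUCP2Tg replicate 4, and the groups were otherwise apart. The log2 fold change of -0.73 (SE 0.19) was the lowest among the carriers, with a limma adjusted p of 0.0932 and an exact permutation p of 0.0571. With 1 array left out at a time it ran from -0.91 to -0.64 and the limma adjusted p from 0.0133, without WT replicate 1, to 0.253.

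The adenine nucleotide translocases *Slc25a4* and *Slc25a5*, which exchange matrix ATP for cytosolic ADP, differed little. *Slc25a4* was 5.51 ± 0.05 in βUCP2Tg and 5.54 ± 0.09 in WT islets, and the 95% interval of its log2 fold change of -0.04 ran from -0.23 to 0.16 which leaves out a difference of 1.5-fold. *Slc25a5* was 3.71 ± 0.01 and 3.58 ± 0.17 (SD, n = 4 each for both genes), a log2 fold change of 0.13 with an interval from -0.11 to 0.36. The 2 ATP-Mg/phosphate carriers related to *Slc25a25* that were also tested had log2 fold changes of -0.05 (*Slc25a23*) and 0.22 (*Slc25a24*), with limma adjusted p of 0.854 and 0.368. Of the 6 carriers, *Slc25a3* and *Slc25a25* were the 2 with an unadjusted p under 0.05.

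**Figure D3:**
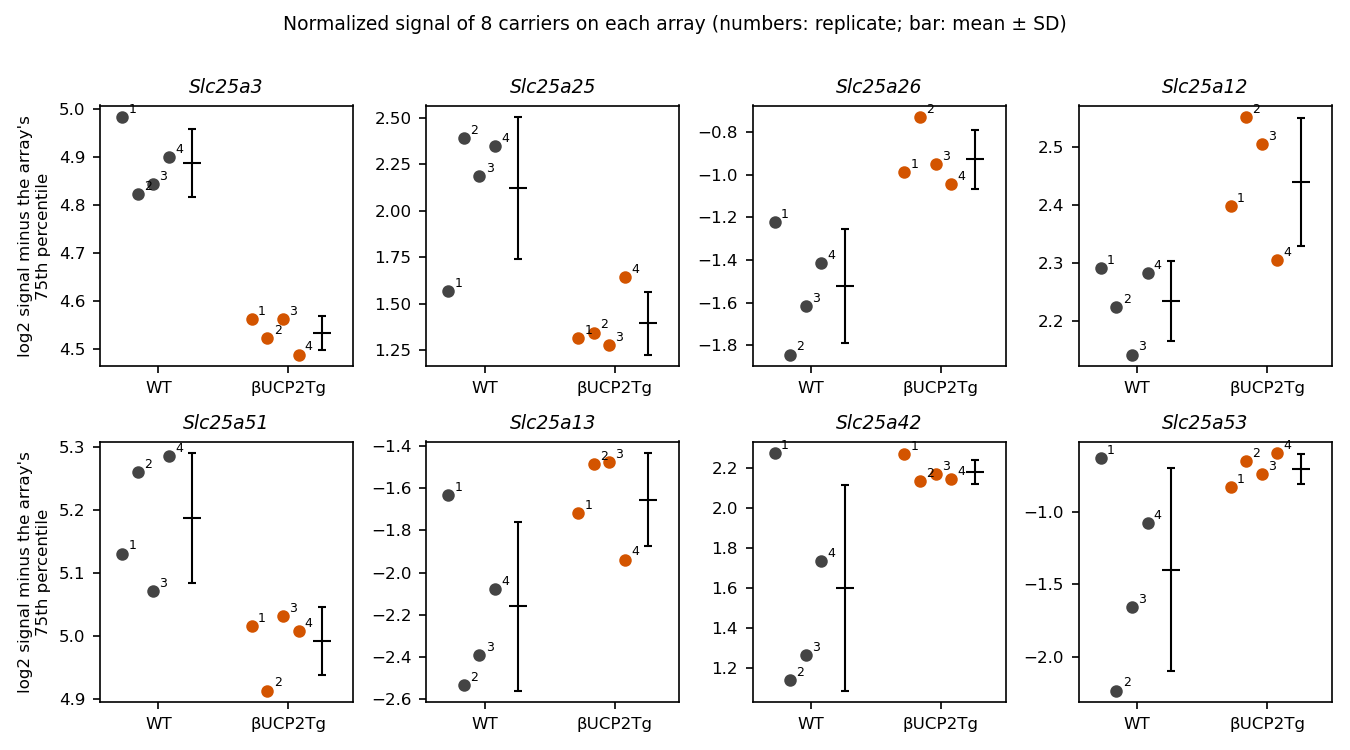
Log2 signal minus the array's 75th percentile (vertical axes, scaled separately) on each of the 4 WT (grey) and 4 βUCP2Tg (orange) arrays for 8 carriers, with the replicate number beside each point and the group's mean ± SD as a bar. *Slc25a3*, *Slc25a26*, *Slc25a12* and *Slc25a51* have no overlap of the groups, whereas for *Slc25a25*, *Slc25a13*, *Slc25a42* and *Slc25a53* WT replicate 1 lies among or next to the βUCP2Tg arrays.

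The carriers of citrate, dicarboxylates, aspartate and glutamate move the metabolites of the malate-aspartate shuttle and of pyruvate cycling. Of 8, 7 were tested and 0 called, 6 had a higher mean in βUCP2Tg islets, and the median log2 fold change was 0.20. *Slc25a12*, an aspartate/glutamate carrier of the shuttle, was 2.40, 2.55, 2.50 and 2.30 on the βUCP2Tg arrays and 2.29, 2.22, 2.14 and 2.28 on the WT arrays. The groups did not overlap, but the gap between the lowest βUCP2Tg array, replicate 4, and the highest WT array, replicate 1, was small beside the spread within a group. Its log2 fold change was 0.20 (SE 0.09), with a limma adjusted p of 0.205 and an exact permutation p of 0.0286.

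*Slc25a13*, the other aspartate/glutamate carrier, was -1.72, -1.49, -1.48 and -1.94 on the βUCP2Tg arrays and -1.63, -2.53, -2.39 and -2.08 on the WT arrays. WT replicate 1 sat among the βUCP2Tg arrays, while WT replicates 2 to 4 were below all of them. The log2 fold change was 0.50 (SE 0.21) with a limma adjusted p of 0.178, and with 1 array left out at a time the limma adjusted p ran from 0.0337, without WT replicate 1 (0.68), to 0.371. *Slc25a10*, the dicarboxylate carrier, had a log2 fold change of 0.38 (SE 0.14, limma adjusted p 0.152), but of 0.00084 (adjusted p 0.995) with normexp background correction.

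The citrate carrier *Slc25a1*, which exports citrate to the cytosol, was 2.98 ± 0.14 in βUCP2Tg and 2.96 ± 0.18 in WT islets (SD, n = 4 each), and its 95% interval from -0.26 to 0.29 lay within 1.5-fold of no difference. The oxoglutarate carrier *Slc25a11* had a log2 fold change of 0.18, with an interval from -0.20 to 0.56. The glutamate carrier *Slc25a22* had one of 0.22 but an interval from -0.64 to 1.07, since its WT arrays ran from -0.84 to 0.78. The other glutamate carrier, *Slc25a18*, was dim, being well above background on 2 of 4 βUCP2Tg and 4 of 4 WT arrays, and had a log2 fold change of -0.24 (SE 0.14, limma adjusted p 0.303).

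The 11 carriers of cofactors, nucleotides and glutathione were all tested, 0 were called, 7 had a higher mean in βUCP2Tg islets, and the median log2 fold change was 0.12. *Slc25a26* imports S-adenosylmethionine, the methyl donor of mitochondrial methylation. It was -0.99, -0.73, -0.95 and -1.04 on the βUCP2Tg arrays and -1.22, -1.84, -1.62 and -1.41 on the WT arrays. The groups did not overlap, and WT replicate 1 was the WT array nearest to the βUCP2Tg arrays. The log2 fold change was 0.60 (SE 0.15, 1.51-fold, limma adjusted p 0.0873), and with 1 array left out at a time the limma adjusted p ran from 0.0216, without WT replicate 1 (0.70), to 0.251.

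*Slc25a51*, the NAD carrier of the inner membrane, was 5.02, 4.91, 5.03 and 5.01 on the βUCP2Tg arrays and 5.13, 5.26, 5.07 and 5.29 on the WT arrays. The groups did not overlap, with a gap between them smaller than the spread among the WT arrays. The log2 fold change was -0.19 (SE 0.09, limma adjusted p 0.209). The other tested probe of *Slc25a51* gave -0.68 (limma adjusted p 0.101) and the mean of both -0.44 (adjusted p 0.0807), whereas quantile normalization gave -0.05 for the brightest probe (adjusted p 0.717).

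*Slc25a42*, a carrier of coenzyme A and adenine nucleotides, was 2.27, 2.13, 2.17 and 2.15 on the βUCP2Tg arrays and 2.27, 1.14, 1.26 and 1.73 on the WT arrays. WT replicate 1 was the highest of all 8 arrays, and the other 3 WT arrays were below every βUCP2Tg array. The log2 fold change was 0.58 (SE 0.23, limma adjusted p 0.171), and with 1 array left out at a time the limma adjusted p ran from 0.0206, without WT replicate 1 (0.80), to 0.358. The largest differences among the rest of this group were 0.32 for *Slc25a17*, a peroxisomal carrier of cofactors, -0.21 for *Slc25a33*, a pyrimidine nucleotide carrier, and 0.17 for *Slc25a39*, a glutathione carrier, with limma adjusted p of 0.176, 0.639 and 0.258.

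The 6 carriers of amino acids and carnitine included 0 with an unadjusted p under 0.05, and their log2 fold changes ran from -0.25 to 0.44. The extremes were *Slc25a15*, an ornithine carrier that was dim and well above background on 5 arrays (0.44, SE 0.39, but -0.11, SE 0.08, with normexp background correction), and *Slc25a29*, a carrier of basic amino acids (-0.25, SE 0.16). *Slc25a44*, a carrier of branched-chain amino acids, had a log2 fold change of 0.34 (SE 0.19), and the carnitine/acylcarnitine carrier *Slc25a20*, which brings fatty acyl groups in for β-oxidation, had one of 0.07 (SE 0.11). Both iron carriers, the mitoferrins *Slc25a37* and *Slc25a28*, had lower means in βUCP2Tg islets, by log2 fold changes of -0.08 (SE 0.08) and -0.22 (SE 0.23), each with a limma adjusted p over 0.5. With 1 array left out at a time the value of *Slc25a28* ran from -0.38, without WT replicate 1, to -0.014, without WT replicate 2.

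Among the outer membrane and less well defined carriers, 8 of 9 were tested and 0 had an unadjusted p under 0.05. *Slc25a53*, whose substrate is not established, gave the highest log2 fold change among the carriers, 0.70 (SE 0.31, limma adjusted p 0.204). It was -0.83, -0.65, -0.73 and -0.59 on the βUCP2Tg arrays and -0.62, -2.24, -1.66 and -1.07 on the WT arrays. WT replicate 1 lay among the βUCP2Tg arrays and the other 3 WT arrays below them. With 1 array left out at a time the log2 fold change of *Slc25a53* ran from 0.42, without WT replicate 2, to 0.96, without WT replicate 1, and the limma adjusted p from 0.0415 to 0.389, while the mean of its probes gave 0.39. *Slc25a48*, *Slc25a34* and *Slc25a45* followed with log2 fold changes of -0.42, -0.19 and 0.18, the last being -0.07 with normexp background correction.

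For 6 pairs of related carriers, the difference of the log2 signals within each array was compared between genotypes. For the translocases *Slc25a4* and *Slc25a5*, this difference was 1.80 ± 0.05 in βUCP2Tg and 1.96 ± 0.08 in WT islets (SD, n = 4 each), a shift of -0.16. This gave an exact two-sided permutation p of 0.0286, the smallest possible, and 0.172 after adjustment over the 6 pairs. For *Slc25a12* and *Slc25a13* the shift was -0.30 (exact p = 0.171). The shifts of the glutamate carriers *Slc25a22* and *Slc25a18*, the mitoferrins, the glutathione carriers *Slc25a39* and *Slc25a40*, and the pyrimidine nucleotide carriers *Slc25a33* and *Slc25a36* had exact p from 0.314 to 0.657.

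Different probes of a gene could give different values. Of 23 carriers with more than 1 tested probe, 14 had all their log2 fold changes on the same side of 0 and 9 had them on both sides. Over all 81 tested probes of the family 0 were called, against 0.41% of all probes tested. Probe sequences are printed below 5′ to 3′ for the carriers where a dim probe gave a value like or unlike that of the brightest one, with capitals for the stretch of 18 bases that encodes the carrier signature in an open reading frame, where a probe holds it.

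The *Slc25a3* probes were all lower in βUCP2Tg islets. The brightest probe and A_51_P269652 gave -0.35 each, whereas A_55_P2717543 and A_52_P299231 gave -0.84 and -0.92, with limma adjusted p between 0.0823 and 0.0932. On A_52_P299231, βUCP2Tg replicates 1 to 3 were at -1.49, -1.77 and -1.85, and βUCP2Tg replicate 4 at -0.71, next to the WT arrays at -0.73, -0.38, -0.48 and -0.55. So the 2 pairs of probes differed in βUCP2Tg replicate 4, which lay with its own genotype on A_51_P269652 (3.85, against 3.76 to 3.86 on the other βUCP2Tg arrays and 4.09 to 4.23 on the WT arrays) and beside WT on A_52_P299231. These are 2 of the 4 probes, one of each kind, and A_52_P299231 holds the signature codons.

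A_51_P269652: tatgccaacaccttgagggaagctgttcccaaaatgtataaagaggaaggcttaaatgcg
A_52_P299231: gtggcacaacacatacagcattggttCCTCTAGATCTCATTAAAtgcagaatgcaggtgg

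All 4 probes of *Slc25a25* gave log2 fold changes within a narrow range, from -0.85 to -0.72, with the lowest limma adjusted p at 0.0851. The probe with that p, A_52_P359088, was -3.26, -3.43, -3.44 and -2.92 on the βUCP2Tg arrays and -2.97, -2.23, -2.30 and -2.25 on the WT arrays, again with WT replicate 1 below βUCP2Tg replicate 4. *Slc25a26* was higher on all 3 probes, but by 0.60, 0.32 and 0.17. The last of these, A_55_P2519595, had a limma adjusted p of 0.462. Both probes are printed as ones other than the brightest of their gene.

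A_52_P359088: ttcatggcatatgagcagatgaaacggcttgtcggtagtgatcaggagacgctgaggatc
A_55_P2519595: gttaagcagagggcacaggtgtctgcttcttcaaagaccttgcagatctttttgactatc

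For *Slc25a37*, mitoferrin 1, the brightest probe gave -0.08 and A_55_P2032445 gave -0.16, but A_52_P507688 gave -0.72 (SE 0.16), with a limma adjusted p of 0.0753, the lowest of any probe of the family. On that probe the βUCP2Tg arrays were at -5.28, -5.55, -5.62 and -5.50 and the WT arrays at -5.17, -4.51, -4.72 and -4.65, with no overlap, although it was dim and well above background on 7 of 8 arrays. These 2 sequences are the probes of 1 gene that gave unlike values.

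A_55_P2032445: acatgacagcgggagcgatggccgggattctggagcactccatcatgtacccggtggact
A_52_P507688: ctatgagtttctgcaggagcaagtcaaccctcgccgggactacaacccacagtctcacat

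The same was seen for *Slc25a23*, whose 3 probes gave -0.05, 0.05 and 0.68, the last with no overlap of the groups and a limma adjusted p of 0.0782. *Slc25a35* (0.03, 0.78 and 0.74) and *Slc25a36* (from -0.58 to 0.10 over 4 probes well above background on all arrays) were singled out after their values were seen. The fifth probe of *Slc25a36*, A_55_P2627695, gave -0.92, but it was dim and well above background on 1 of 4 βUCP2Tg and 3 of 4 WT arrays. *Slc25a42* had 1 of 3 probes below 0 (-0.19) and *Slc25a53* 1 of 3 (-0.20, a probe well above background on 6 of 8 arrays), and *Slc25a12* 1 of 5 (-0.35). Probes of different carriers shared at most 12 bases in a row, over 4567 pairs of probes.

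**Figure D4:**
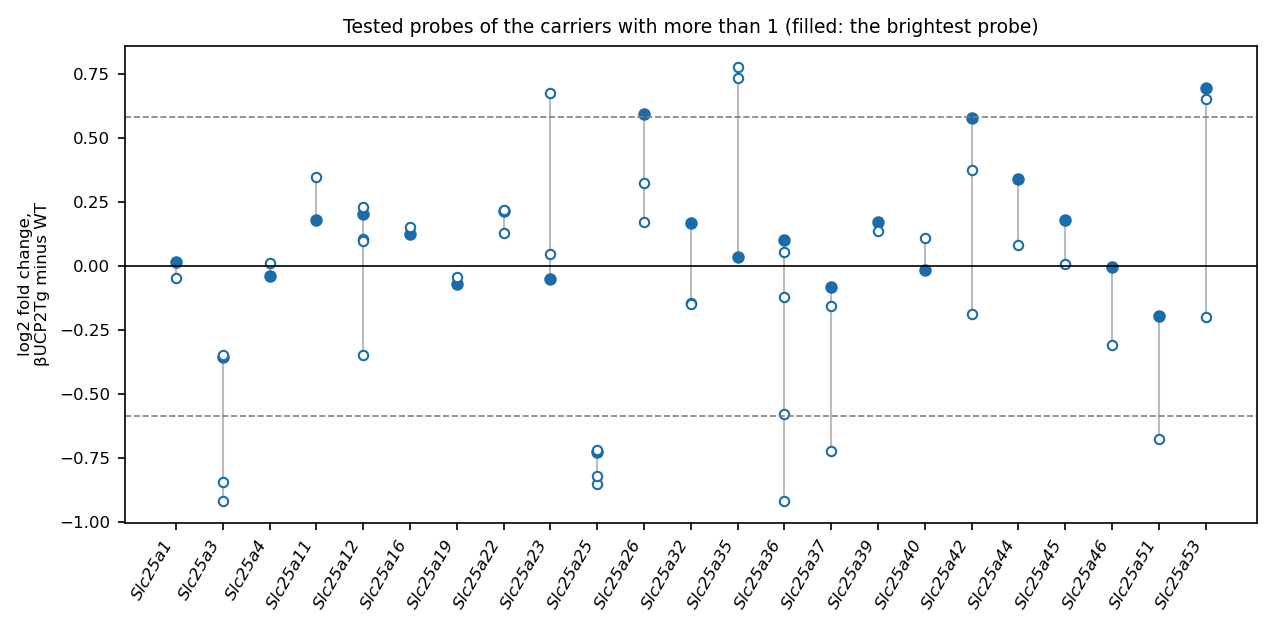
Log2 fold change, βUCP2Tg minus WT (vertical axis), of each tested probe (points) of the 23 carriers with more than 1, the brightest probe filled, with dashed lines at 1.5-fold. The 4 probes of *Slc25a25* lie between -0.85 and -0.72, whereas those of *Slc25a23*, *Slc25a35*, *Slc25a36*, *Slc25a42* and *Slc25a53* spread over more than 0.7, the lowest point of *Slc25a36* (-0.92) being a dim probe without which its values lie between -0.58 and 0.10.

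The partners of the carriers were looked at through lists of enzymes and transporters, and 0 genes of these lists were called. Of 7 NADH shuttle enzymes, 1 had an unadjusted p under 0.05 in each direction. The cytosolic malate dehydrogenase *Mdh1* was lower by a log2 fold change of -0.35 (SE 0.09, limma adjusted p 0.0885) with no overlap of the groups, and *Gpd1*, the cytosolic enzyme of the glycerol phosphate shuttle, had one of 0.91 (SE 0.28, adjusted p 0.115). All 10 pyruvate and citrate cycling enzymes had a higher mean in βUCP2Tg islets, against 54% of all genes, with a median of 0.16. The largest were *Idh1*, cytosolic isocitrate dehydrogenase (0.55, limma adjusted p 0.142), and *Me3*, a mitochondrial malic enzyme (0.38, adjusted p 0.0885).

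Of 18 inner membrane transporters outside the family, 4 were higher and 2 lower at an unadjusted p under 0.05. *Mcub*, a subunit of the calcium uniporter that dampens it, had a log2 fold change of -1.20 (SE 0.31, limma adjusted p 0.0898), and *Sfxn4*, a sideroflexin, one of 0.69 (SE 0.17, adjusted p 0.0845). Of 6 outer membrane genes 0 had an unadjusted p under 0.05, the largest differences being 0.52 for *Tspo* and 0.23 for *Vdac3*, a porin. Of 10 genes of the machinery that inserts carriers into the inner membrane 1 did, *Timm8a1*, an intermembrane space chaperone, at -0.51 (SE 0.09, limma adjusted p 0.0570), and *Timm10*, a chaperone of carrier import, had a log2 fold change of 0.19.

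Larger differences between the same arrays were seen outside the family. Of 13 hypoxia response genes, a list chosen with earlier results of these data known, 11 had a lower mean in βUCP2Tg islets. Of these 10 (76.9% of the list) had an unadjusted p under 0.05, where 11.6% of all genes were lower at that limit, and 0 were called. The median log2 fold change was -1.22. The largest were *Adm* (-2.56) and the glucose transporter *Slc2a1* (-2.51), whereas *Car9* (0.45) and *Ndrg1* (0.01) had higher means. The summed signal of the list, in multiples of the 75th percentile, was 114 to 122 on βUCP2Tg replicates 1 to 3, 199 on βUCP2Tg replicate 4, 172 on WT replicate 1 and 262 to 289 on WT replicates 2 to 4. *Slc25a25* also had βUCP2Tg replicate 4 as the highest of its group and WT replicate 1 as the lowest, as did the *Slc25a3* probe A_52_P299231. For *Slc25a12*, *Slc25a13* and *Slc25a26*, among others, βUCP2Tg replicate 4 was the lowest of its group and WT replicate 1 the highest. The part of the hypoxia response in these differences was not tested.

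All 12 acinar markers were lower in the mean, with a median of -1.77 and 0 at an unadjusted p under 0.05, led by *Cela2a* (-2.14) and *Pnlip* (-2.03). All 12 were tested, and their summed signal ran from 15.0 to 286 over the βUCP2Tg arrays and from 23.6 to 479 over the WT arrays, so exocrine RNA varied widely within both groups. Of the 4 duct markers 3 were tested, all lower in the mean (*Krt19* -1.63, limma adjusted p 0.0686, and *Sox9* -0.88), and *Cftr* was not tested. *Krt19* was lower on every βUCP2Tg array than on any WT array. The mean log2 signal of the 4 duct markers ran from -2.66 to -2.47 over the βUCP2Tg arrays and from -2.25 to -1.34 over the WT arrays. This mean includes *Cftr*, which was well above background on 0 βUCP2Tg and 3 WT arrays, and without *Cftr* the groups overlapped. The summed signals of the duct markers, 18.5 to 28.9 and 11.3 to 52.8, also overlapped. So did *Sox9* and *Spp1* (-0.37), and the *Spp1* probe gave most of each sum. Fewer cells of a type and less RNA per cell cannot be told apart in whole islets, and the part of these cells in the carriers' values was not tested.

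The endocrine lists differed less. The medians were -0.12 for the 8 β-cell markers (*Nkx6-1* 0.41, *Mafa* -0.34), with summed signals of 1120 to 1495 in βUCP2Tg and 1445 to 1477 in WT islets, and 0.14 for the 7 markers of α-, δ- and PP-cells (*Hhex* 0.43), with summed signals of 611 to 790 and 586 to 704. The mean log2 signal of the latter list did not overlap, at 3.87 to 3.98 in βUCP2Tg and 3.55 to 3.81 in WT islets. Its hormones *Gcg* (0.04), *Sst* (-0.04) and *Ppy* (0.27) each overlapped between the groups. The 7 endothelial markers had a median of -0.03, 3 higher and 4 lower in the mean (from *Flt1* -0.75 to *Kdr* 0.76 and *Emcn* 1.01) and summed signals of 22.7 to 27.6 and 24.0 to 29.9, and the 6 macrophage markers a median of -0.47, 2 higher and 4 lower in the mean (*Aif1* 0.52, *Cd68* -0.88, and *Cx3cr1* -1.01 with an SE of 1.30, well above background on 4 arrays) and summed signals of 4.28 to 6.53 and 5.87 to 8.58. None of these genes was called.

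**Figure D5:**
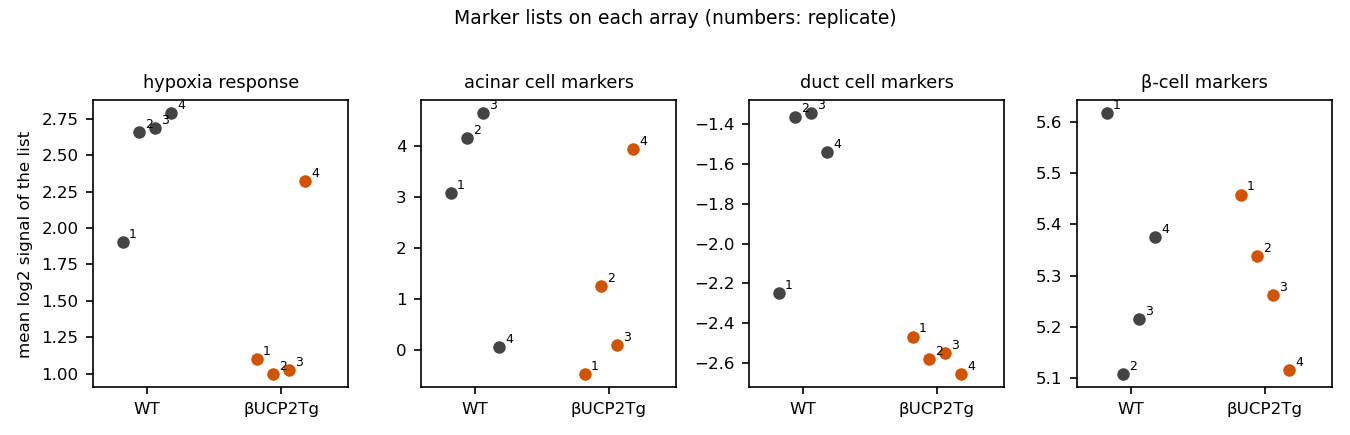
Mean log2 signal of each list (vertical axes, scaled separately) on each of the 4 WT (grey) and 4 βUCP2Tg (orange) arrays, with the replicate number beside each point. In the hypoxia panel βUCP2Tg replicate 4 (2.32) and WT replicate 1 (1.91) stand away from their groups, and the acinar panel spreads over several log2 units in both genotypes. The duct panel includes *Cftr*, which was not tested.

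Since WT replicate 1 was the array that most often lay with the other genotype, the count was repeated without it. Leaving out an array chosen by its values sets the groups further apart for genes in general. The adjusted p-values without WT replicate 1 are therefore no support for a carrier. Without it 5 of 40 carriers were called, *Slc25a13*, *Slc25a26*, *Slc25a42* and *Slc25a53* higher and *Slc25a25* lower, which is 12.5% of the carriers. Of all genes 11.4% were then called, 6.89% higher and 4.55% lower, so the carriers' share was near that of the background. With βUCP2Tg replicate 4 also left out, 5 of 39 carriers (12.8%) were called, *Slc25a44* (log2 fold change 0.60) in place of *Slc25a53*, against 15.7% of all genes. With the arrays of the out-of-range quality metrics, WT replicates 1 and 3, left out, 1 carrier was called, *Slc25a25* (log2 fold change -0.97, limma adjusted p 0.0468), against 0.929% of all genes.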

How the data were processed

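Total RNA of 8 mouse islet samples was labelled with Cy3 and hybridised to one-colour Agilent arrays. The deposited scanner files hold each spot's intensity (background-subtracted processed signal) from Feature Extraction, version 10.7.3.1 per the file headers and 9.1 per the labels. The authors also deposited a GeneSpring table of normalized log2 values, which differ from log2 of the processed signal by a constant per array, and its columns of p-values and fold changes were not used.

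Control spots and spots marked as outliers were dropped, the processed signal was put on the log2 scale, the array's 75th percentile subtracted, and spots of a probe averaged. Of 56605 probes, the 35363 well above background on 4 arrays or more were tested. The number of arrays limits the precision. βUCP2Tg was compared with WT by limma 3.58.1 (R 4.3.3) with Benjamini-Hochberg adjustment over all probes tested. Calls needed a fold over 1.5 besides an adjusted p under 0.05. The scripts were tested on simulated data. Single values were also compared by exact permutation tests, two-sided.

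The carriers, the lists of other genes and the role groups were chosen with earlier results of these data known. Named were all tested carriers of the groups for ATP, ADP and phosphate and for citrate, dicarboxylates, aspartate and glutamate, every carrier called, those whose groups do not overlap, up to 4 further examples of each other group and 2 genes of each list by size of the log2 fold change, 1 of which is not reported here. *Flt1* and *Aif1* were named after their values were seen. Alternatives changed the filter, scaling, background correction, test, probe choice and the arrays included. Probe sequences are those of the deposited table. Figures were drawn with matplotlib 3.10.9.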

Additional observations from a re-analysis of the deposited data

Results flagged for a closer look

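Over 104 groups of 4 arrays (the 2 genotypes of each carrier and of each list), 4 had 1 array far from the other 3, by the ratio of the gap to the whole range with a critical value of 0.829, where chance gives 5.2. *Slc25a29* was at 1.06 on βUCP2Tg replicate 4, against 0.79 to 0.82 on the other βUCP2Tg arrays (ratio 0.903). *Slc25a33* was at -0.68 on βUCP2Tg replicate 3, against -0.53 to -0.52 (ratio 0.906). The mean of the hypoxia response genes was at 2.32 on βUCP2Tg replicate 4, against 1.00 to 1.103 (ratio 0.919), and at 1.91 on WT replicate 1, against 2.66 to 2.79 (ratio 0.852).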

How the results depend on the processing

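Over 25 alternatives, the counts of carriers called stayed at 0 higher and 0 lower except in the methods' t-test before adjustment (1 higher, *Slc25a26*, and 1 lower, *Slc25a25*, where 7.29% of all genes passed, and 0 carriers after Benjamini-Hochberg adjustment) and when arrays were left out. Leaving out 1 array at a time gave 0 to 4 carriers higher and 0 to 1 lower, the highest counts being without WT replicate 1. Without both βUCP2Tg replicate 4 and WT replicate 1 there were 4 higher and 1 lower, and without WT replicates 1 and 3, an alternative chosen after seeing the data, 0 higher and 1 lower.

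Carriers with no overlap, 2 higher and 2 lower, numbered 5 and 1 after quantile normalization, 5 higher with the percentile taken over probes measured on all arrays, 1 lower with median scaling, and 0 higher and 4 lower with the mean of all tested probes of a gene. They numbered 12 and 5 without βUCP2Tg replicate 4 and WT replicate 1, and 8 higher without WT replicates 1 and 3. Leaving out 1 array at a time gave 2 to 7 higher and 2 to 4 lower. The share of all genes with no overlap was not computed for any of these alternatives. With fewer arrays no overlap comes more easily for any gene, so these counts are no result about the carriers beside other genes. The median log2 fold change of the carriers was 0.0050 with normexp correction, against -0.03 for all genes, 0.12 after quantile normalization (0.07 for all genes), 0.13 with median scaling (0.09 for all genes), 0.11 without βUCP2Tg replicate 4 and WT replicate 1, and 0.05 to 0.09 with 1 array left out. The cause of these shifts was not tested.

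Of the 31 carriers named with a value, 9 turned sign in an alternative, each time with an adjusted p over 0.1. With normexp correction *Slc25a15* was at -0.11, *Slc25a35* at -0.094 and *Slc25a45* at -0.068. With the mean of all probes *Slc25a36* was at -0.29, *Slc25a1* at -0.016 and *Slc25a23* at 0.23. *Slc25a4* was at 0.10 after quantile normalization and 0.024 with median scaling, and *Slc25a23* at 0.012 with median scaling. Without βUCP2Tg replicate 4 and WT replicate 1, *Slc25a1* was at -0.10 and *Slc25a22* at -0.18, and without WT replicates 1 and 3 *Slc25a1* at -0.077 and *Slc25a23* at 0.11. With 1 array left out at a time, *Slc25a1* ran from -0.052 to 0.094, *Slc25a4* from -0.067 to 0.0034, *Slc25a22* from -0.086 to 0.45, *Slc25a23* from -0.12 to 0.057, *Slc25a33* from -0.43 to 0.030 and *Slc25a35* from -0.091 to 0.20. The other 22 had the same direction in each alternative run, although *Slc25a10* was at 0.00084 with normexp correction.

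Arrays with equal replicate numbers shared a column of the slide, and whether they were paired in another way was not known. The correlations of their deviations from the group means were 0.44, -0.05, -0.01 and -0.24. Over all pairs of a βUCP2Tg and a WT array these ran from -0.468 to 0.455, and so few values cannot decide whether the arrays were paired. With the replicate number as a block, 0 carriers were called and 6 had an unadjusted p under 0.05, against 7 without it.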
